A study of Homo sapiens with 11 samples.

Results

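The transcripts described here had clear RNA but few ribosome footprints: 1298 transcripts, called poorly occupied below, of 25961 that were eligible. They were chosen by the measured ratio of footprints to RNA. Rows with the same counts in all 11 libraries were merged, which left 66016 rows with a count of the 182398 listed. Levels are in CPM, the usual depth-scaled counts, taken over the merged rows of a library. A row was eligible with a listed length of 31 to 1999, a mean RNA level of at least 5 CPM and at least 10 footprint counts summed over the 5 footprint libraries. The lowest 5% of the ratio, with the 3 genotypes weighted equally, are the poorly occupied transcripts. The ratio and the 2 levels behind it are therefore given as a description, without a test. The unit of the listed length is not stated in the sources used here.

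In ribosome profiling, RNase digests the messenger RNA that is not covered by a ribosome, and the protected fragments are sequenced as footprints. The footprint level of a transcript divided by its RNA level is a measure of how heavily ribosomes occupy it. Transcripts that stay in the nucleus, transcripts without a translated reading frame and transcripts held back at initiation are all known to carry few ribosomes for their amount of RNA.

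The cells were HEK293T, a human embryonic kidney line. The wild type was compared with 2 knockouts labelled CSAM-KO#1 and CSAM-KO#2, here knockout 1 and knockout 2. CSAM is PCIF1, the methyltransferase that adds the N6 methyl group to an adenosine beside the mRNA cap. Footprints were sequenced in 1 wild-type library and 2 libraries of each knockout, and RNA in 2 libraries of each genotype, the wild-type pair being labelled WT#1 and WT#2. Whether a knockout is 1 clone, and whether libraries of a genotype came from separate cultures, is not stated in the labels, so a p-value reflects the spread of these libraries alone, which may be technical. The rows carry UCSC-style transcript identifiers, which the files do not pair with gene names. The targeted gene and the markers of the cell line were therefore not analysed here, and transcripts are given by identifier. After merging, libraries held 8387752 to 17437453 footprint counts and 40346318 to 63551193 RNA counts.

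The poorly occupied transcripts differed from the eligible ones in their footprints and little in their RNA. Their median ratio was 0.132, with quartiles of 0.0952 and 0.162 and a range of 0.0106 to 0.187, against a median of 0.772 over all eligible transcripts, 5.85-fold higher. Their median RNA level was 12.2 CPM against 14.1 CPM, a 1.16-fold difference. Their median footprint level was 1.44 CPM against 11.5 CPM, a 7.98-fold difference. Per 100 units of listed length, their median RNA level was 4.74 CPM and that of eligible transcripts 4.73 CPM, while the median footprint levels were 0.567 and 3.51 CPM.

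**Figure D1:**
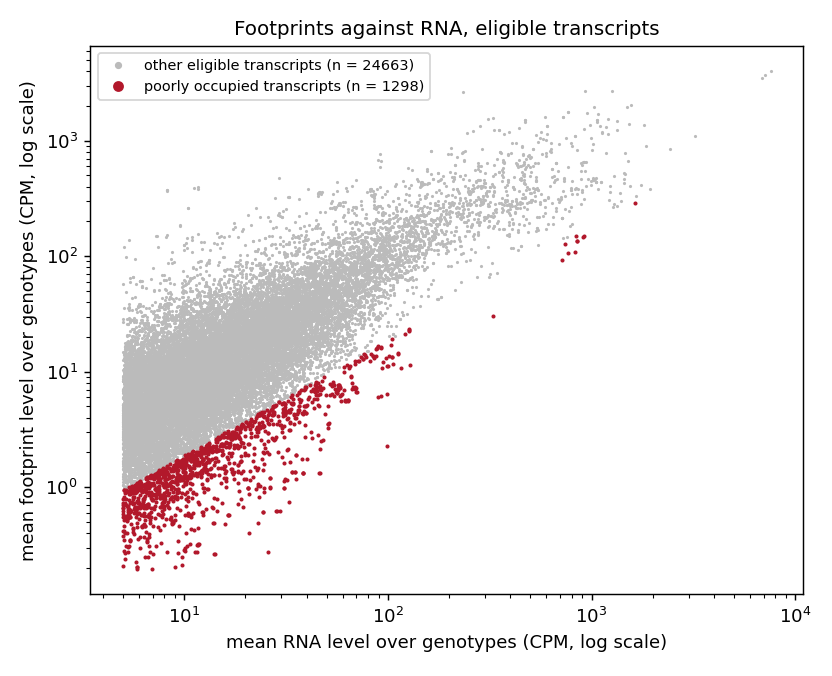
Mean footprint level against mean RNA level of the 25961 eligible transcripts, in CPM on log axes, with each point 1 merged row and genotypes weighted equally. The 1298 poorly occupied transcripts (red) run along the lower edge of the cloud across the whole range of RNA levels up to 1631 CPM.

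The limit between the set and the rest fell inside a continuous distribution. Just inside it were uc057onc.1 and uc061ymt.1, both at a ratio of 0.1867, and just outside it were uc062adi.1 at 0.1867 and uc060cgx.1 at 0.1868. Depth set how well a transcript could be placed. The median poorly occupied transcript had 78 footprint counts over the 5 libraries, against 626 for eligible transcripts, and 347 of the 1298 had fewer than 50. An exact Poisson 95% interval on the summed footprint counts, which covers counting error only, stayed below the limit for 879 transcripts and reached it for 419 (32.3%). A further 46 rows met the length and RNA criteria but had fewer than 10 footprint counts, 2 of them none at all, and were left out by the rule.

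The rule averages over the genotypes, so each genotype on its own is described here without a test. With the lowest 5% taken in each genotype alone, 1042 of the 1298 (80.3%) fell in it in wild type, 1151 (88.7%) in knockout 1 and 1083 (83.4%) in knockout 2. In all 3 genotypes it was 814 (62.7%), and in at least 2 it was 1167. The median ratio of the poorly occupied transcripts was 0.122 in the wild-type footprint library, 0.138 and 0.128 in those of knockout 1, and 0.123 and 0.122 in those of knockout 2. The 2 libraries of knockout 1 gave the highest values. Over eligible transcripts the median ratio was 0.727 in the wild-type library, 0.792 and 0.775 in those of knockout 1, and 0.782 and 0.806 in those of knockout 2. There the knockouts overlapped.

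Summed over the set, the poorly occupied transcripts took a smaller share of footprints than of RNA. In RNA they held 3.65% and 3.39% of the counts in wild type, 3.42% and 3.44% for knockout 1, and 3.48% and 3.43% for knockout 2. These ranges overlap between genotypes. In footprints they held 0.487% in wild type, 0.496% and 0.472% for knockout 1, and 0.439% and 0.432% for knockout 2. Both knockout 2 libraries lay below the other 3. The 9 transcripts of the 2 most abundant stretches weigh heavily in these sums. Without them the footprint shares were 0.339% in wild type, 0.358% and 0.343% for knockout 1, and 0.311% and 0.314% for knockout 2, again lowest in knockout 2. The RNA shares without them were 2.837% and 2.635% in wild type, 2.639% and 2.680% for knockout 1, and 2.538% and 2.509% for knockout 2. Both knockout 2 libraries were then the lowest in RNA as well. The 223 transcripts left out of the footprint test by its count minimum were lowest there too, with summed footprints of 126 CPM in wild type, 127 and 124 CPM in knockout 1, and 108 and 103 CPM in knockout 2. Their summed RNA was also lowest in knockout 2, at 2014 and 1928 CPM in wild type, 1885 and 1916 CPM in knockout 1, and 1769 and 1764 CPM in knockout 2.

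**Figure D2:**
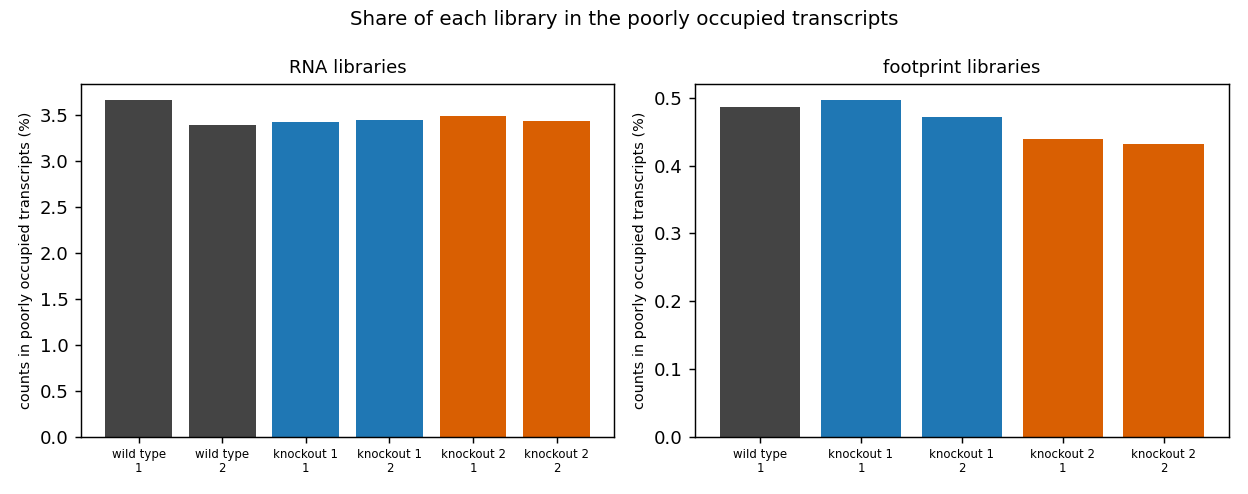
Percent of each library's merged counts that fell in the 1298 poorly occupied transcripts, with 1 bar per library, for the 6 RNA libraries (left) and the 5 footprint libraries (right); the axes start at 0 and differ in scale. RNA bars lie between 3.39% and 3.65%, and the 2 footprint bars of knockout 2, at 0.439% and 0.432%, are the lowest.

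Poorly occupied transcripts came in groups of neighbours. Members within 20 table lines of each other were counted as 1 run, since consecutive identifiers often hold nearly the same counts. The 1298 transcripts formed 475 runs: 185 were single transcripts, 1113 transcripts (85.7%) were in runs of at least 2, and 72 runs of at least 5 held 501 of them. They had 1213 distinct sets of footprint counts, and 170 (13.1%) were merged from several identical rows, against 11.7% of eligible transcripts. Counts of transcripts are therefore larger than counts of independent RNAs, and counts of runs are given beside them.

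Eligible neighbours outside the set have higher ratios than the set by the rule, so their level is set beside that of all eligible transcripts. In 448 runs at least 1 eligible transcript outside the set lay within 20 lines, and the 3049 such neighbours had a median ratio of 0.597, below the 0.772 of all eligible transcripts. In 159 of those runs the neighbours' own median was above that of all eligible transcripts. In 27 runs no eligible neighbour lay outside the set.

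The longest run held 19 transcripts, from uc001ued.5 (listed length 412) to uc058urx.1 (listed length 116). In uc001ued.5, RNA was 68.8 and 64.3 CPM in wild type, 74.2 and 77.8 CPM in knockout 1, and 60.4 and 59.5 CPM in knockout 2. Its footprints were 6.85 CPM in wild type, 8.18 and 9.66 CPM in knockout 1, and 4.82 and 7.89 CPM in knockout 2. The RNA of knockout 1 was the highest and that of knockout 2 the lowest, with no overlap, while the footprint libraries of knockout 2 lay on either side of wild type. Over the run the median ratio was 0.106, RNA ranged from 5.78 to 100 CPM and footprints from 1.02 to 11.2 CPM. The 4 eligible neighbours outside the set had ratios of up to 1.03.

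**Figure D3:**
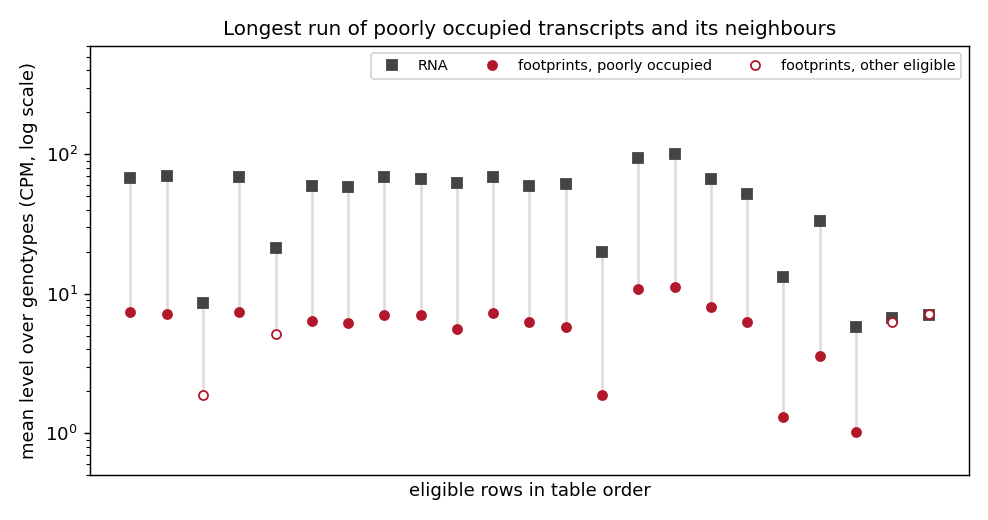
Mean RNA level (squares) and footprint level (circles) over genotypes, in CPM on a log axis, for the 23 eligible rows in or within 20 lines of the longest run, in table order and joined by a line per row. In the 19 poorly occupied transcripts (filled) the footprints lie far below the RNA, and in the last pair of neighbours (open) they nearly meet it.

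Poorly occupied transcripts were spread over the table but not evenly. In stretches of 1000 table lines, each of which held at least 30 eligible transcripts, the median share of poorly occupied ones was 4.19%, and 8 of 183 stretches held none. The highest share was 21.0% (44 of 210) in lines 9001 to 10000, followed by 17.3% (24 of 139) in lines 92001 to 93000 and 16.4% (24 of 146) in lines 118001 to 119000, which hold the longest run. Lines 9001 to 10000 held a run of 14, from uc057kck.1 to uc057kdu.1, with a median ratio of 0.0419. In the same stretch, chosen here after its values were seen, 7 transcripts from uc057kjy.1 to uc057kkm.1 had ratios of 0.0217 to 0.0901. A row 2 lines further, uc031uxg.1 (listed length 155), had RNA of 10.4 CPM and footprints of 261 CPM, a ratio of 25.1. Rows of very low and very high ratio thus lay side by side there.

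Also chosen after values were seen, 3 separate runs in table lines 92590 to 93723 held 6, 4 and 4 poorly occupied transcripts and repeated the listed lengths 649, 654 and 677. Their ratios were 0.0239 to 0.186, 0.0226 to 0.0299, and 0.0215 to 0.0289. How reads that fit several near-identical transcripts were counted is not given in the sources used here, so the split of reads among such copies is uncertain.

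The share of the set was highest among the shortest transcripts. The share of eligible transcripts that were poorly occupied was 8.63% (176 of 2039) at listed lengths of 31 to 100, 5.22% (316 of 6055) at 101 to 200, 4.0% (271 of 6774) at 201 to 400, 4.74% (338 of 7130) at 401 to 800 and 4.97% (197 of 3963) at 801 to 1999. By RNA level, the share was 5.90% at 5 to 10 CPM and 2.00% (26 of 1297) at 100 CPM and above, where the ratio itself contains the RNA level. Identifiers ending in version 1 made up 59.6% of the poorly occupied transcripts and 48.2% of the eligible ones.

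The lowest ratio of all belonged to uc002pte.4 (listed length 108), merged from 4 identical rows. Its RNA was 21.8 and 25.1 CPM in wild type, 27.0 and 27.0 CPM in knockout 1, and 25.2 and 29.1 CPM in knockout 2, well above the median of the set. Its footprint counts were 5 in wild type, 4 and 1 for knockout 1, and 0 in both libraries of knockout 2. The ratio was 0.0106, with an exact Poisson 95% interval of 0.00507 to 0.0194 for counting error. The 10 footprint counts are the fewest the rule allows, and did not meet the count minimum of the test between genotypes.

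The next lowest ratios, in separate runs, belonged to longer transcripts. The transcript uc059hib.1 (listed length 622) had 15 footprint counts against 14.2 CPM of RNA, a ratio of 0.0185. For uc061lzr.1 (listed length 1023), RNA was 28.89 and 23.36 CPM in wild type, 19.98 and 20.11 CPM in knockout 1, and 17.28 and 15.03 CPM in knockout 2, and 24 footprint counts gave a ratio of 0.0195. Its RNA was lower in both knockouts, by a log2 change of -0.49 ± 0.09 (SE; edgeR adjusted p = 4.14e-04), and no knockout library reached a wild-type one. The transcripts uc057kfx.1 (listed length 821) and uc057ucm.1 (listed length 654) had ratios of 0.0210 and 0.0215, from 33 and 13 footprint counts. These 4 were seen in every footprint library, with 1 to 11 counts each.

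At the other end, the most abundant poorly occupied transcript was uc001txr.4 (listed length 246), in a run of 7. Its RNA was 1516 and 1490 CPM in wild type, 1494 and 1502 CPM in knockout 1, and 1846 and 1938 CPM in knockout 2. Its footprints were 297 CPM in wild type, 307 and 296 CPM in knockout 1, and 291 and 262 CPM in knockout 2. RNA was higher in knockout 2 than in any other library, and its footprints were the lowest. The RNA change of knockout 1 minus knockout 2 was -0.38 ± 0.08 (edgeR adjusted p = 0.00219), and that of translational efficiency, the footprint change minus the RNA change, was 0.50 ± 0.12 (edgeR adjusted p = 0.0385). Its ratio was 0.197 in wild type, 0.201 in knockout 1 and 0.146 in knockout 2, with only knockout 2 below the limit of the set. These tests used the knockout 2 values that brought it into the set.

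The next most abundant transcript from another run, uc004bqy.3 (listed length 156), had RNA of 895 and 769 CPM in wild type, 797 and 789 CPM in knockout 1, and 921 and 870 CPM in knockout 2. Its footprints were 184 CPM in wild type, 151 and 143 CPM in knockout 1, and 124 and 115 CPM in knockout 2. Here footprints stepped down from wild type to knockout 1 to knockout 2 without overlap, while RNA overlapped. The footprint change of the knockout mean minus wild type was -0.56 ± 0.10 (edgeR adjusted p = 9.58e-06), and that of translational efficiency was -0.63 ± 0.13 (edgeR adjusted p = 0.00158).

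Comparisons between genotypes were fitted with edgeR over the whole table, with Benjamini-Hochberg adjustment over all rows tested and a threshold of 0.05, and the counts for the poorly occupied transcripts are read beside the share called over the table. The same footprint and RNA libraries chose the set, through their mean over genotypes. In that mean the 1 wild-type footprint library weighed as much as the 2 libraries of a knockout. Footprint and translational efficiency comparisons with wild type are therefore not fully separate from the choice of the set. Neither are those between the knockouts, where a low ratio in 1 knockout can bring a transcript into the set. The size of this was not tested. There were 6 comparisons: RNA, footprints and translational efficiency, each for the mean of both knockouts against wild type and for knockout 1 against knockout 2. The 2 kinds share the knockout libraries.

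In RNA, 148 of the 1298 poorly occupied transcripts differed between the knockout mean and wild type (11.4%), against 8.8% of all rows tested and 12.6% of eligible ones. Of the 148, 50 (27 runs) were higher and 98 (53 runs) lower in the knockouts, beside 3.89% of all rows tested higher and 4.91% lower. Eligible rows divided into 1700 higher and 1576 lower. The median change was -0.03 over the set and 0.01 over eligible transcripts, and the median size among the 148 was 0.35. The count fell to 81 without wild-type RNA library 1, to 53 or 69 without 1 of the knockout 1 libraries, to 91 without knockout 2 library 2, and to 74 with DESeq2. Lower calls outnumbered higher ones in each of these.

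Among called transcripts whose groups did not overlap, the largest fall was in uc004dau.5 (listed length 162). Its RNA was 8.18 and 11.7 CPM in wild type, 3.62 and 4.48 CPM in knockout 1, and 1.8 and 1.46 CPM in knockout 2. All 4 knockout libraries lay below both wild-type ones, and knockout 2 lay below knockout 1. The log2 change was -1.90 ± 0.15 for the knockout mean (edgeR adjusted p = 9.59e-10) and 1.27 ± 0.20 for knockout 1 minus knockout 2 (edgeR adjusted p = 1.40e-04). Its footprint counts were 11 in wild type, 13 and 2 for knockout 1, and 2 and 0 for knockout 2. In footprints, knockout 1 library 1, at 1.24 CPM, was close to the 1.26 CPM of wild type. The footprint fall of the knockout mean passed at -2.36 ± 0.79 (edgeR adjusted p = 0.0369). Without knockout 2 library 2 it was -2.08 and did not pass. Without knockout 1 library 1 the transcript did not meet the count minimum and could not be tested.

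Next was uc060xtl.1 (listed length 377), with RNA of 10.01 and 9.31 CPM in wild type, 5.90 and 7.81 CPM in knockout 1, and 3.36 and 3.47 CPM in knockout 2. The order of the genotypes was the same as in uc004dau.5, without overlap. The change of the knockout mean was -0.95 ± 0.12 (edgeR adjusted p = 1.87e-06). Its 32 footprint counts did not meet the count minimum of the footprint test.

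The largest rises were smaller and came from 1 run of 8 transcripts. In uc061cwn.1 (listed length 150), RNA was 5.63 and 5.42 CPM in wild type, 6.30 and 8.53 CPM in knockout 1, and 8.48 and 9.34 CPM in knockout 2. Every knockout library was above both wild-type ones, and the change was 0.61 ± 0.12 (edgeR adjusted p = 0.00137). Its neighbour uc061cwp.1 rose by 0.57 ± 0.11 (edgeR adjusted p = 0.00139), and had the same footprint counts in all 5 libraries, so the pair is not independent. Those counts were 1 in wild type, 7 and 14 for knockout 1, and 11 and 12 for knockout 2, and the footprint change did not pass (edgeR adjusted p = 0.0715).

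Between the knockouts, 128 poorly occupied transcripts differed in RNA (9.86%), against 6.54% of all rows tested and 8.72% of eligible ones. Of these, 71 (31 runs) were higher in knockout 1 and 57 (22 runs) higher in knockout 2, beside 3.53% and 3.01% of all rows tested. The median change of knockout 1 minus knockout 2 was 0.06 over the set and 0.00 over eligible transcripts. Which direction had more calls was not stable: DESeq2 gave 45 higher and 50 lower, and leaving out knockout 2 library 1 gave 39 and 44. The count was 43 and 40 without knockout 1 library 1 or 2, and 51 without knockout 2 library 2.

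The largest difference was in uc065bgd.1 (listed length 180, merged from 6 identical rows), which was nearly absent from knockout 1. Its RNA was 14.0 and 17.0 CPM in wild type, 0.0991 and 0 CPM in knockout 1, from 4 and 0 counts, and 15.5 and 19.1 CPM in knockout 2. Its footprint counts were 20 in wild type, 0 and 2 for knockout 1, and 45 and 30 for knockout 2. Wild type and knockout 2 were alike in order of size and knockout 1 was near 0 in both assays. The RNA change was -8.57 ± 0.32 (edgeR adjusted p = 3.59e-14), with a size that depends on the few counts of knockout 1. Of the knockout libraries, only those of knockout 2, where its footprints are high, reached the footprint count minimum, so no footprint p-value is given. The neighbouring row uc065bga.1, with nearly the same counts, had an RNA change of -8.47 ± 0.32 (edgeR adjusted p = 1.12e-14). In wild type and knockout 2 the ratio of uc065bgd.1 was 0.148 and 0.169, so its place in the set does not rest on knockout 1.

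Among those higher in knockout 1, the largest after uc004dau.5 was uc284qzu.1 (listed length 142). Its RNA was 6.829 and 7.501 CPM in wild type, 8.43 and 7.68 CPM in knockout 1, and 4.53 and 3.16 CPM in knockout 2. Knockout 2 lay below the other 4 libraries, and the change of knockout 1 minus knockout 2 was 1.01 ± 0.16 (edgeR adjusted p = 4.22e-05).

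In footprints, 1075 poorly occupied transcripts in 436 runs reached 10 counts in at least 2 footprint libraries and were tested, and the other 223 did not. With 1 wild-type library, 242 of the 1075 were admitted through the knockout libraries alone and none through wild type alone. Between the knockout mean and wild type 63 differed (5.86%), against 11.3% of all rows tested and 14.8% of eligible ones. Of the 63, 53 (30 runs) were lower in the knockouts and 10 (6 runs) higher, beside 6.67% and 4.6% of all rows tested. The median change over the 1075 was -0.06, against -0.03 over eligible transcripts. The share called was 5.86% in the lowest 5% of eligible transcripts by ratio and 31.6% in the highest 5%, which have more footprint counts. The part of depth in that difference was not tested. Wild type had 1 footprint library, and its spread was taken to be that of the replicated libraries. DESeq2 gave an adjusted p to 25 of the 1075 and called 4.

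A fall resting on more counts was seen in uc057gkh.1 (listed length 159). Footprints stood at 4.22 CPM in wild type, 0.856 and 0.477 CPM in knockout 1, and 1.72 and 2.19 CPM in knockout 2. Its RNA was 17.6 and 15.3 CPM in wild type, 6.89 and 8.65 CPM in knockout 1, and 13.7 and 16.2 CPM in knockout 2. Every knockout library was below wild type in footprints, while the RNA of knockout 2 overlapped that of wild type. The footprint change was -1.97 ± 0.37 (edgeR adjusted p = 5.33e-05) and that of translational efficiency -1.41 ± 0.37 (edgeR adjusted p = 0.0159).

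The 2 footprint calls named here rested on a wild-type library with almost no counts. The transcript uc010juu.4 (listed length 625) had 1 count in wild type, 13 and 11 for knockout 1, and 13 and 12 for knockout 2. Likewise uc002qjb.5 (listed length 269), from the run of uc061cwn.1, had 2 counts in wild type, 8 and 16 for knockout 1, and 30 and 17 for knockout 2. All knockout libraries exceeded wild type in both. Both met the count minimum only through the knockouts, where they are high, which favoured a rise, so no test or fold is given. They were the only 2 called of the 242 admitted in this way. They are 2 of the 10 transcripts called higher.

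Between the knockouts, the median footprint change of the set lay above that of eligible transcripts. The median change of knockout 1 minus knockout 2 was 0.19 over the 1075 tested, against 0.01 over eligible transcripts, and 66.5% of them were above 0, against 50.1% of all rows tested. Taken run by run, the median of the run medians was 0.20, and 291 of 436 runs (66.7%) were above 0. The median stayed between 0.14 and 0.30 in the 13 alternative settings tried. Quartiles were -0.09 and 0.49, and no test of the set as a whole was made. For single transcripts, the median absolute difference between the 2 footprint libraries of a knockout was 0.298 in knockout 1 and 0.254 in knockout 2, on log2(CPM + 0.5). These are spreads of single transcripts and not of a median over the set. Single transcripts passed in 56 cases (5.21%), against 8.32% of all rows tested and 10.4% of eligible ones, of which 44 (27 runs) were higher and 12 (7 runs) lower in knockout 1, beside 4.54% and 3.78% of all rows tested. The count fell to 8 without knockout 1 library 1, to 18 and 27 without knockout 2 library 1 or 2, and to 0 with DESeq2, which gave 219 of them an adjusted p and 22 an unadjusted p under 0.05.

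The difference between the knockouts graded with the ratio. Over the 20 classes of the ratio, each of 5% of eligible transcripts, the median footprint change of knockout 1 minus knockout 2 was 0.19 in the lowest class, 0.11 in the second and 0.06 in the third, and -0.05 in the highest. The median RNA change went from 0.06 in the lowest class to -0.02 in the highest. Translational efficiency was 0.17 in the lowest class, 0.07 in the second and 0.01 in the third. Among transcripts with mean footprints under 2 CPM, the set and the others had different medians. Only this upper bound was shared, so footprint levels were not matched. The 696 eligible transcripts outside the set had a median footprint change of 0.07 and a median change of translational efficiency of 0.02. The 595 tested transcripts of the set under the same 2 CPM had medians of 0.21 and 0.18. These differences between classes were not tested.

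**Figure D4:**
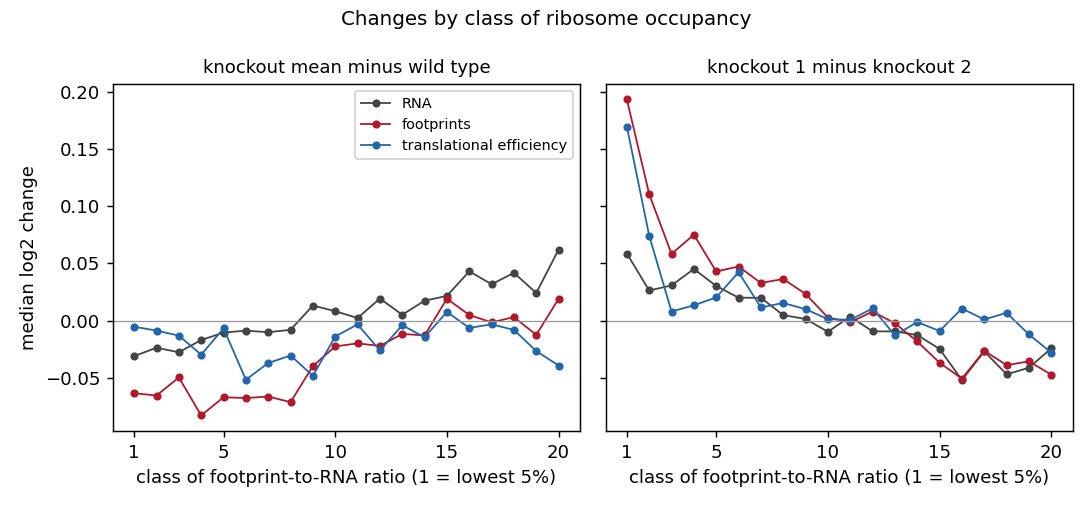
Median log2 change of RNA, footprints and translational efficiency in 20 equal classes of the footprint-to-RNA ratio, where class 1 is the poorly occupied transcripts, for the knockout mean minus wild type (left) and knockout 1 minus knockout 2 (right). In the right panel class 1 stands highest for footprints, at 0.19, and translational efficiency, at 0.17; points have no error bars, since rows are not independent.

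By length, the median footprint change of the set lay above that of eligible transcripts in each of the 5 classes. At listed lengths of 31 to 100, 101 to 200 and 201 to 400 the median footprint change of knockout 1 minus knockout 2 in the set was 0.27, 0.38 and 0.19, against -0.01, 0.06 and 0.03 over eligible transcripts. At 401 to 800 and 801 to 1999 it was 0.08 and 0.06, against -0.02 and -0.05. For the 316 transcripts of 101 to 200, the median footprint level was 1.48 CPM in wild type, 1.52 and 1.31 CPM in knockout 1, and 1.15 and 1.10 CPM in knockout 2. Knockout 2 was the lowest there, and knockout 1 lay on either side of wild type. For the 197 transcripts of 801 to 1999 the order was different: 1.83 CPM in wild type, 2.09 and 1.91 CPM in knockout 1, and 2.18 and 2.30 CPM in knockout 2. The change with length was not tested within the set.

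For the knockout mean against wild type, length graded the set much as it graded all eligible transcripts. The median change of translational efficiency rose from -0.23 at 31 to 100 to 0.13 at 801 to 1999 in the set, and from -0.32 to 0.21 over eligible transcripts. For RNA the medians of the set were -0.02, -0.02 and -0.01 in the 3 shortest classes, against 0.10, 0.05 and 0.04 over eligible transcripts. At 801 to 1999 the 2 medians were -0.12 and -0.10.

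A single transcript higher in knockout 1 by footprints was uc064vsj.1 (listed length 122). Footprints stood at 1.83 CPM in wild type, 2.09 and 0.835 CPM in knockout 1, and 0.631 and 0.329 CPM in knockout 2. The knockouts did not overlap, but the 2 libraries of knockout 1 lay far apart. The change was 1.51 ± 0.51 (edgeR adjusted p = 0.0475), and it was 0.66 without knockout 1 library 1 (edgeR adjusted p = 0.763). Its RNA was 10.1 to 13.0 CPM in all 6 libraries.

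In translational efficiency, 39 poorly occupied transcripts differed between the knockout mean and wild type (3.63%), against 5.57% of all rows tested and 7.53% of eligible ones. Of these, 34 (21 runs) were lower and 5 (3 runs) higher, beside 4% and 1.56% of all rows tested, and the median change over the 1075 was -0.01. With limma-voom 18 passed, all of them lower. The largest fall with groups that did not overlap was in uc062mgp.1 (listed length 112). Footprints stood at 2.28 CPM in wild type, 0.856 and 0.835 CPM in knockout 1, and 0.631 and 0.548 CPM in knockout 2, while its RNA was 7.71 and 9.14 CPM in wild type and 7.08 to 9.96 CPM in the knockouts. Footprints separated and RNA overlapped, with a change of -1.80 ± 0.46 (edgeR adjusted p = 0.0149). The next fall, in uc057hzj.1, was -1.47 ± 0.45 (edgeR adjusted p = 0.0451) and was lost in 9 of 14 other settings.

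A rise resting on more counts was in uc001lqq.2 (listed length 556). Its footprint counts were 20 in wild type, 52 and 39 for knockout 1, and 127 and 57 for knockout 2, or 2.28 CPM, 4.94 and 4.65 CPM, and 7.28 and 6.25 CPM. Its RNA was 35.4 and 35.6 CPM in wild type, 27.4 and 31.6 CPM in knockout 1, and 43.7 and 47.2 CPM in knockout 2. Footprints were above wild type in all 4 knockout libraries, while RNA was below wild type in knockout 1 and above it in knockout 2. The change of translational efficiency was 1.15 ± 0.31 (edgeR adjusted p = 0.0197), and it did not pass with limma-voom (adjusted p = 0.121). The other transcript named here, uc063jyq.1, had 3 footprint counts in wild type, 12 and 16 for knockout 1, and 20 and 10 for knockout 2. It met the count minimum only through the knockouts, which favoured a rise, so no test is given.

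**Figure D5:**
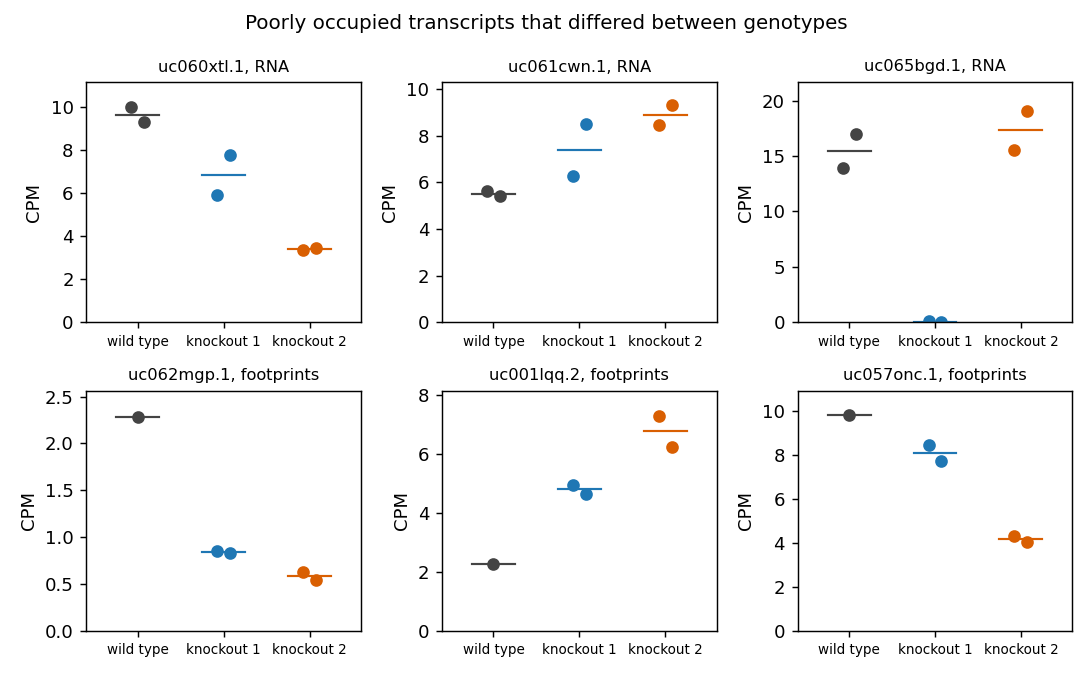
CPM in each library (points) and the mean of each genotype (lines) for 3 poorly occupied transcripts in RNA (top) and 3 in footprints (bottom); every axis starts at 0, and wild type has 1 footprint library. RNA of uc065bgd.1 is near 0 in knockout 1 alone, and footprints of uc062mgp.1 and uc001lqq.2 lie below and above wild type in all 4 knockout libraries.

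Between the knockouts, 7 poorly occupied transcripts differed in translational efficiency (0.651%), against 0.504% of all rows tested and 0.727% of eligible ones. Of these, 6 (5 runs) were higher in knockout 1 and 1 was lower, beside 0.445% and 0.059% of all rows tested. Leaving out single libraries moved the count between 0 and 14. It was 0 without knockout 1 footprint library 1 or knockout 2 footprint library 2, where 88 and 123 passed at an unadjusted p under 0.05, and 14 without wild-type RNA library 1. The median over the 1075 tested was 0.17, against 0.01 over eligible transcripts, and stayed between 0.11 and 0.23 in the 19 alternative settings tried. At listed lengths of 31 to 100, 101 to 200 and 201 to 400 it was 0.25, 0.37 and 0.20, against 0.02, 0.10 and 0.07 over eligible transcripts. At 401 to 800 (280 tested) and 801 to 1999 (180 tested) it was near 0, at -0.003 and -0.03, against -0.03 and -0.12.

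The transcript just inside the limit, uc057onc.1 (listed length 256), was among the 6. Footprints stood at 9.82 CPM in wild type, 8.46 and 7.75 CPM in knockout 1, and 4.30 and 4.06 CPM in knockout 2, and its RNA was 36.9 to 41.4 CPM in all 6 libraries. Knockout 2 had about the RNA of the others and the fewest footprints. The change of translational efficiency was 0.87 ± 0.20 (edgeR adjusted p = 0.0266), lost in 7 of 15 other settings. Its ratio was 0.242 in wild type and 0.111 in knockout 2, and its ratio of 0.201 in knockout 1 was also above the limit, so only knockout 2 lay below it. The low values of knockout 2 thus brought it into the set, and the test between the knockouts used them again. That test is therefore not separate from the choice of the set. In uc001mnn.5 (listed length 279) footprints were 2.74 CPM in wild type, 2.28 and 2.98 CPM in knockout 1, and 0.860 and 1.10 CPM in knockout 2, again lowest in knockout 2. The change was 1.73 ± 0.35 (edgeR adjusted p = 0.0134) and was lost in 6 of 15 other settings. Its ratio was 0.215 in wild type, 0.246 in knockout 1 and 0.0771 in knockout 2, so the same limit applies.

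The exception was uc061lue.1 (listed length 609), with footprint counts of 2 in wild type, 0 and 2 for knockout 1, and 19 and 17 for knockout 2. Its RNA was 19.04 and 13.91 CPM in wild type, 12.0 and 12.3 CPM in knockout 1, and 9.13 and 7.71 CPM in knockout 2. Footprints were highest where RNA was lowest. The transcript met the count minimum only through knockout 2, where its footprints are high, so no test is given. Without it the calls were the 6 higher in knockout 1.

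Calls in RNA and in footprints are set beside each other here. Of the 1075 tested in both, 130 were called in RNA and 63 in footprints for the knockout mean, and 11 in both, which is 8.46% of the first and 17.5% of the second. Over all rows tested in both, the 926 joint calls were 20.7% and 18.6%. Between the knockouts 118 and 56 were called and 14 in both, 11.9% and 25%, where over all rows the 1183 joint calls were 36.5% and 32.2%. Of the RNA calls, 81 of the 130 (62.3%) and 91 of the 118 (77.1%) had the same sign in footprints, against 69.9% and 88.1% over all rows. No test of these differences was made, and the set has fewer footprint counts than the rest. Replicates of the set differed more in footprints than in RNA. In RNA the median absolute log2 difference between the 2 libraries of a genotype was 0.134 in wild type, 0.0770 in knockout 1 and 0.115 in knockout 2.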

How the data were processed

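Per the labels' protocols, footprints came from RNase I digestion, ribosome pelleting and linker ligation, and RNA libraries from a stranded TruSeq mRNA kit. TopHat2 2.0.9, Bowtie2 2.1.0, CASAVA 1.8 and the build hg38 appear, without roles, in the submitters' processing notes. The counting program, its strand setting and its handling of shared reads are not given in the sources used here. Each deposited file gives, for 1 library, raw counts of reads per transcript row and a listed length, whose unit the deposited files do not state. Neighbouring rows often hold nearly the same counts, so rows were not treated as independent, and overlapping or antisense transcripts and near-identical copies cannot be told apart.

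From the deposited counts, CPM was computed over merged rows. edgeR 4.0.16 in R 4.3.3 (robust quasi-likelihood, two-sided, TMM within each assay) tested rows that reached 10 counts in 2 or more libraries of the assay (of both assays for translational efficiency). Translational efficiency was an interaction term, from a joint model of the 11 libraries. All genotypes shared 1 estimate of the spread. The SE is the change over the square root of F. The scripts were tested on simulated data. Alternatives used DESeq2 1.42.0 and limma 3.58.1, other filters, limits and merging, and left out libraries.

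The members, lists and rules were chosen with earlier results of these data known. Named transcripts were the lowest ratio of each of the 5 lowest runs, the 2 of highest RNA, the ends of the longest run, those at the limit, and up to 2 of largest change per direction among called ones whose groups did not overlap. No sequences or coordinates are printed, since identifiers matched none in the tables used.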

Additional observations from a re-analysis of the deposited data

Results flagged for a closer look

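In 23 cases a named poorly occupied transcript differed between knockout 1 and knockout 2 by the direct test, so its change from wild type differs between the knockouts. Values are log2 changes of knockout 1 minus knockout 2. In RNA they were -8.57 for uc065bgd.1 and -8.47 for its neighbour uc065bga.1, which shares nearly all its counts, -0.98 for uc057gkh.1, -0.67 for uc001lqq.2, -0.44 for uc061ymt.1 and -0.38 for uc001txr.4. RNA was higher in knockout 1 by 1.27 for uc004dau.5, 1.01 for uc284qzu.1, 0.96 for uc060xtl.1, 0.48 for uc061lue.1 and 0.30 for uc001ued.5. In footprints the fitted values were -4.62 for uc065bgd.1 and -4.60 for uc065bga.1, each from 2 counts in knockout 1, and -1.46 for uc057gkh.1. They were 3.19 for uc004dau.5, from 2 counts in knockout 2, 1.51 for uc064vsj.1, 1.44 for uc001mnn.5, 0.94 for uc057onc.1 and 0.30 for uc004bqy.3. In translational efficiency they were 1.73 for uc001mnn.5, 0.87 for uc057onc.1, 0.51 for uc004bqy.3 and 0.50 for uc001txr.4. Where a knockout held 2 counts, the fitted size depends on the prior count and is not a bound. Of the knockout libraries, only knockout 1 library 1, where its footprints are high, brought uc004dau.5 to the count minimum. Its footprint value is therefore read with that limit. In uc065bgd.1, uc065bga.1 and uc057gkh.1, only knockout 2, where footprints are high, reached that minimum among the knockout libraries. Their footprint values are read with the same limit. The footprint and translational efficiency calls of uc061lue.1 are left out, since it met the count minimum only through knockout 2.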

How the results depend on the processing

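Taking the lowest 2% of the ratio gave 519 transcripts with a median ratio of 0.0863, and calls of 50 and 49 (RNA), 7 and 11 (footprints) and 8 and 2 (translational efficiency), for the knockout mean and for knockout 1 against knockout 2 in that order. The lowest 10% gave 2596 transcripts, a median of 0.187, and calls of 320 and 264, 152 and 141, and 104 and 21. An RNA minimum of 10 CPM gave 863 transcripts with a median of 0.140. A minimum of 50 footprint counts gave a median of 0.163 and 12 calls in translational efficiency between the knockouts. DESeq2 called 74 in RNA for the knockout mean and 95 between the knockouts, where the direction with more calls turned to lower (45 and 50), and 4 and 0 in footprints. In translational efficiency limma-voom called 18 and 2. Size factors from DESeq2 in edgeR, no filter on low counts, and unmerged rows kept each count of calls within 1.5 times.

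Leaving out single libraries moved the calls between 53 and 191 in RNA for the knockout mean, 40 and 184 in RNA between the knockouts, 47 and 94 and then 8 and 65 for footprints, and 26 and 56 and then 0 and 14 for translational efficiency, in the same order of comparisons. More calls were lower than higher in RNA between the knockouts without knockout 2 RNA library 1 (83 calls), and the only call left in translational efficiency without knockout 1 RNA library 2 was lower (1 call). The cause was not tested. The number of transcripts stayed between 1293 and 1303 and the median ratio between 0.130 and 0.134. Of the named transcripts' calls, none turned direction over the settings tried; 202 recomputed calls held and 41 were lost.

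Libraries were not treated as paired by replicate number in the main tests. Deviations of same-numbered libraries correlated at -0.149, 0.244 and 0.0970 in RNA and -0.0110 in footprints. A replicate block gave 197 and 173 calls in RNA, against 148 and 128 without it. Between the knockouts, with their libraries alone, it gave 54 for footprints and 17 for translational efficiency, against 56 and 7 in the main tests. Whether same-numbered libraries are paired was not settled. No paired analysis was possible for footprints against wild type because the wild-type footprint library carries no number.

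Depth limits the footprint tests: 223 of the 1298 transcripts did not meet the count minimum.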
